A study of Zea mays with 8 samples.

Results

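The genes described here carry the B73 gene numbers from 1 to 460 with the prefix Zm00001d, which lie on contigs of the B73 version 4 genome that were not placed on a chromosome. The files held 318 of these IDs, with 1 further ID of the range left aside, among 39498 IDs in all. Of the 318, 157 reached at least 1 CPM (counts per 1000000 counted reads) in at least 2 of the 6 B73 and hybrid libraries, and these 157 are the set under study. Whole tissue RNA of immature maize ears was sequenced in 4 groups of 2 libraries. The mutant hybrid (mop1F1, B73/Mo17;mop1/mop1) is homozygous for a mutation in mop1. The wild-type hybrid (WTF1, Mo17/B73/;+/+) carries the wild-type gene, and the inbred parents B73 and Mo17 are wild type. The labels give the hybrids' parents in opposite orders, and plant age is not among them. Whether both libraries of a group stem from different plants is not stated either, so each p-value rests on a library-to-library spread that may be technical.

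An assembled genome holds chromosomes and, beside them, loose contigs whose place could not be settled, often because they are rich in repeats or resemble other stretches. A gene model on such a contig is numbered and counted like any other. The product of mop1 is an RNA-dependent RNA polymerase that makes the double-stranded precursors of small RNAs for RNA-directed DNA methylation, which in maize is found mainly near genes and transposons. None of the 318 IDs was paired with a name in the sources used here (0 matches), so the genes are given by ID without the shared suffix RefGen_V4, and no role, sequence, length or position is given. Levels are CPM and not per length, so differences in level between genes also carry their lengths. The level of mop1 itself and the defining markers of the ear were not checked, for the same want of names.

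All 318 IDs were at 0 counts in both Mo17 libraries, while 65.6% and 65.9% of the other IDs had counts there. Per the names of the deposited tables, reads of Mo17 were aligned to the Mo17 genome and reads of B73 and the hybrids to that of B73, so a 0 in Mo17 can stand for an ID missing from the Mo17 gene set and is not read as silence. The levels of the unplaced genes are therefore never compared with Mo17. The Mo17 libraries still enter the fit of all 8 libraries, through the shared spread, and serve below to pick other IDs at 0 in Mo17. The counted reads per library lay between 11723096 and 26199577, so that 3 counts, the most that a count of 0 allows, corresponded to 0.115 to 0.256 CPM; this covers counting error only. The parental libraries were closer replicates than the hybrid ones. In the hybrids, the libraries numbered 1 had 10.25% (mop1F1) and 9.70% (WTF1) ambiguous records, against 1.29% to 2.35% in the other 6 libraries.

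Genes on the unplaced contigs were expressed over a wide range of levels, with a median near that of all IDs at the same minimum. That minimum was met by 157 of the 318 IDs, beside 22844 of all 39498 IDs. The mean over the 6 libraries ran from 0.664 to 262 CPM with a median of 23.4 CPM, beside 21.4 CPM for all 22844 IDs that met the same minimum. Of the 157 genes, 133 reached 1 CPM in all 6 libraries, 102 averaged at least 10 CPM and 14 averaged at least 100 CPM. Among the 22147 other IDs at the minimum with counts in Mo17, 15359 averaged at least 10 CPM. Counts were found in every one of the 6 libraries for 151 of the 157. Only 7 genes reached 1 CPM in the hybrids and in neither B73 library, and 1, Zm00001d000360, reached it in B73 and in no hybrid library. Such genes met the minimum through the group in which they were high, so their selection favoured a difference. Of the 161 IDs that missed the minimum, 72 had no count in any of the 6 libraries and 89 had a few. The genes nearest to the limit on the inside were Zm00001d000175 and Zm00001d000216, whose second highest library had 1.02 and 1.05 CPM. Nearest on the outside were Zm00001d000111 and Zm00001d000164, both at 0.853 CPM.

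The 10 genes with the most reads made up 29.8% of the set's summed mean level. Zm00001d000168 had 309 and 173 CPM in the 2 mop1F1 libraries, 146 and 184 CPM in WTF1, and 401 and 358 CPM in B73. All 4 hybrid libraries of this gene lay below both B73 libraries. Its log2 fold change was -0.56 ± 0.39 in mop1F1 and -1.20 ± 0.39 in WTF1 against B73 (SE), and neither passed (edgeR quasi-likelihood test, adjusted p = 0.469 and 0.154). Without mop1F1 library 1 or 2, which enter the shared spread, the WTF1 difference passed (edgeR, adjusted p = 0.0391 and 0.0434). Zm00001d000300 had 162 and 236 CPM in mop1F1, 150 and 255 CPM in WTF1, and 264 and 268 CPM in B73. The hybrids were below B73 here too, but one library of each hybrid came close to it (edgeR, adjusted p = 0.6 for mop1F1 and 0.558 for WTF1).

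Zm00001d000339 differed more between libraries of a hybrid than between groups. It had 372 and 34.1 CPM in mop1F1 and 404 and 88.7 CPM in WTF1, with 111 and 129 CPM in B73, so that B73 lay between the 2 libraries of each hybrid. Zm00001d000224 had 128 and 204 CPM in mop1F1 and 186 and 146 CPM in WTF1, all above the 110 and 123 CPM of B73. Zm00001d000302 likewise had 84.7 and 177 CPM in mop1F1 and 157 and 95.5 CPM in WTF1, above the 73.7 and 74.0 CPM of B73. In both genes mop1F1 was higher in library 2 and WTF1 in library 1. Of the other genes with most reads, Zm00001d000021 had 89.6 and 121 CPM in mop1F1, 67.6 and 112 CPM in WTF1, and 139 and 154 CPM in B73. The remaining ones, Zm00001d000169, Zm00001d000432 and Zm00001d000227, stayed between 89.0 and 155 CPM in all 6 libraries.

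**Figure D1:**
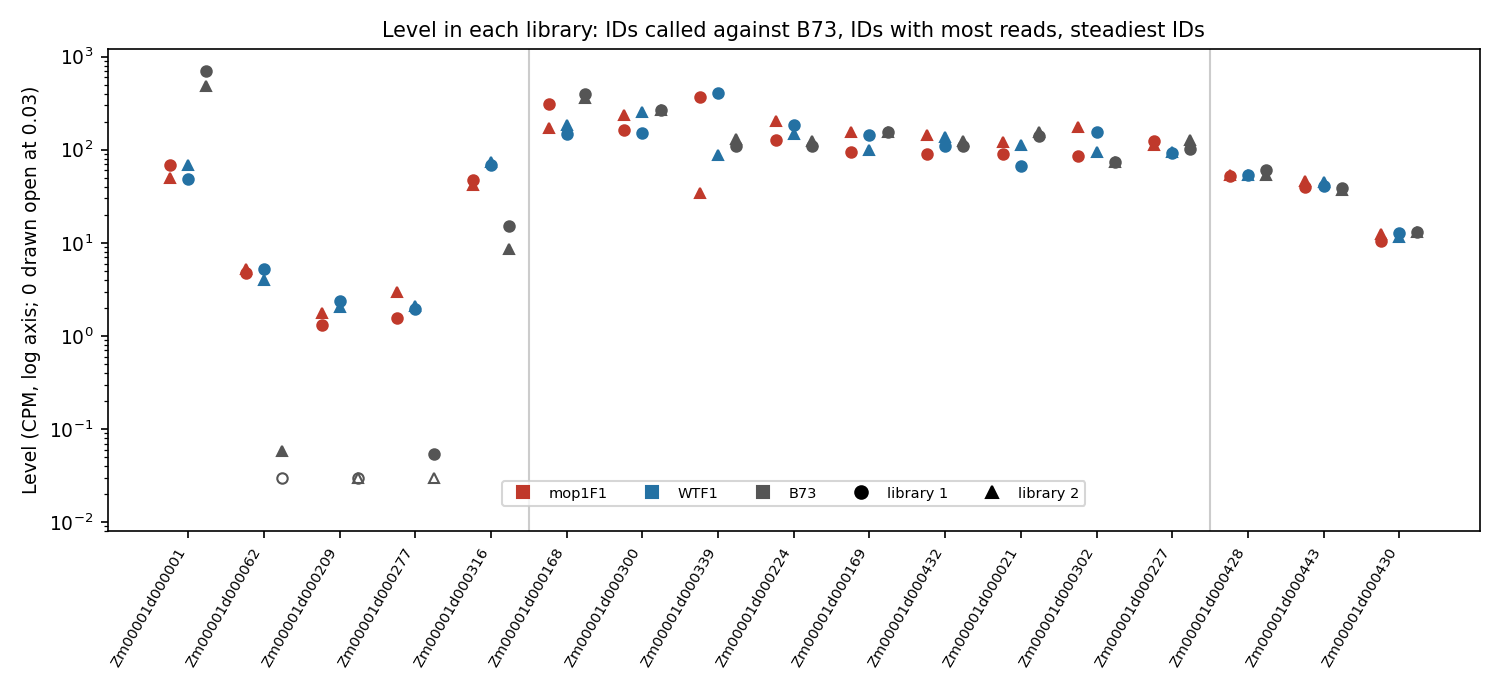
Level of single genes on unplaced contigs in each library, in CPM on a log axis, with circles for library 1 and triangles for library 2 of mop1F1, WTF1 and B73; a count of 0 is drawn open at the bottom. From left to right stand the 5 genes called different from B73 in both hybrids, the other 9 of the 10 genes with most reads, and the 3 steadiest genes. Zm00001d000001 was far lower in the hybrids than in B73, and the hybrid libraries of Zm00001d000339 lay on both sides of B73.

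On the whole, the unplaced genes were near their B73 level in both hybrids. The median log2 fold change of the 157 genes was 0.009 in mop1F1 against B73 (quartiles -0.48 and 0.43) and -0.035 in WTF1 against B73 (quartiles -0.37 and 0.50). Over all 24511 IDs tested the medians were 0.075 and 0.033. A change within 0.5 on the log2 scale was found for 52.2% of the genes in mop1F1 and 54.1% in WTF1, beside 51% and 49.96% of all IDs tested. All IDs tested include some below the set's CPM minimum. For the 22147 other IDs at that minimum with counts in Mo17, the shares were 54.4% in mop1F1 and 53.2% in WTF1. Both comparisons share the B73 libraries. Among the 147 genes that averaged at least 1 CPM in B73, the median ratio to the B73 mean was 0.870 and 0.945 in the mop1F1 libraries and 0.946 and 0.941 in the WTF1 libraries. This ratio is on the CPM scale, without further scaling factors.

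Other IDs at 0 in Mo17 mostly stood lower in the hybrids, and a smaller part stood higher. Outside the unplaced numbers, 540 IDs had 0 counts in both Mo17 libraries and at least 1 CPM in at least 2 of the 6 others. Their median log2 fold change was -0.74 in mop1F1 and -0.77 in WTF1 against B73. Of the 540, 57.4% lay below -0.5 in mop1F1 and 60.4% in WTF1, compared with 23.6% and 20.4% of the 157 genes on unplaced contigs. Above 0.5 lay 27.8% of the 540 in mop1F1 and 26.3% in WTF1, compared with 24.2% and 25.5% of the unplaced genes. The upper tail was long, with a 90th percentile of 7.10 in mop1F1 and 7.06 in WTF1 for the 540, fitted values that depend on the prior count where B73 is near 0. With a mean of at least 10 CPM the medians of 143 such IDs were -0.91 in mop1F1 and -0.92 in WTF1, beside 0.01 and -0.04 for 102 unplaced genes. Among IDs averaging at least 1 CPM in B73, the median ratio to the B73 mean over 404 such IDs was 0.398 and 0.524 in the mop1F1 libraries and 0.548 and 0.363 in the WTF1 libraries. These IDs were picked by their own Mo17 counts, whereas the unplaced IDs were picked by number, so the contrast is a description and has no test. Both level minimums were chosen after the values were seen.

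**Figure D2:**
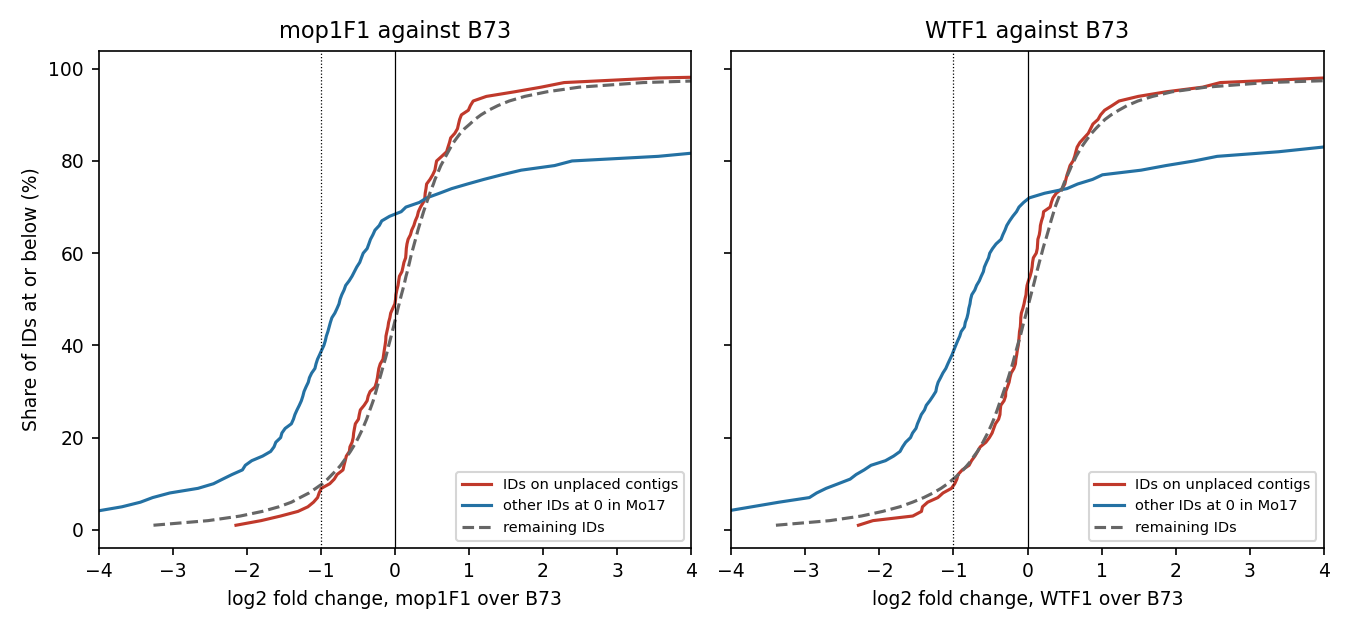
Cumulative share of IDs by log2 fold change against B73, with mop1F1 on the left and WTF1 on the right; the solid line marks no change and the dotted line a log2 fold change of -1. The 157 genes on unplaced contigs (red) follow the remaining IDs (dashed), with medians of 0.009 in mop1F1 and -0.035 in WTF1, while the 540 other IDs at 0 in Mo17 (blue) have medians of -0.74 and -0.77.

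Few of the unplaced genes differed from B73 beyond the spread of the libraries, and the same 5 did so in both hybrids. Both comparisons use the same B73 libraries and the same fit, so this overlap is no independent agreement. In mop1F1, 4 of 157 were higher than in B73 (2.55%, beside 2.45% of all IDs tested) and 1 was lower (0.637%, beside 1.05%). In WTF1, 4 were higher (2.55%, beside 2.05%) and 1 was lower (0.637%, beside 1.2%). These shares were near those of all IDs tested, which include some below the set's CPM minimum. An unadjusted p below 0.05 was found for 23 genes in mop1F1 (14.65%, beside 21.26% of all IDs tested) and for 22 in WTF1 (14.01%, beside 21.46%). Of the 4 higher genes, 3 reached 1 CPM in the hybrids alone and so met the minimum through the groups in which they were high. Without B73 library 1 or without B73 library 2, 0 genes were called in either hybrid (edgeR; 8 and 10 at an unadjusted p below 0.05 in mop1F1, 9 and 8 in WTF1). A fit of mop1F1 and B73 alone also called 0 genes (edgeR; 25 at an unadjusted p below 0.05). Other settings gave more or fewer calls. The shares over all IDs given above belong to the fit of all 8 libraries. For the other settings no such share is given, so whether they changed calls more at these genes than elsewhere was not tested. DESeq2 called 5 higher and 2 lower in mop1F1 and 7 and 1 in WTF1. A covariate for ambiguous records marked library 1 of both hybrids. It set the hybrids against B73 near the level of library 2, so its calls also carry the gap between a hybrid's libraries. With this covariate, edgeR called 5 higher and 5 lower in mop1F1 and 6 and 6 in WTF1. Without mop1F1 library 1 it called 5 higher and 5 lower in mop1F1. Without the Mo17 group, 1 higher and 1 lower were called in mop1F1 and 2 higher and 1 lower in WTF1.

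Zm00001d000001 had the most reads of the set in B73 and fell in both hybrids. It had 69.4 and 50.2 CPM in mop1F1 and 47.9 and 68.6 CPM in WTF1, against 694 and 489 CPM in B73. No hybrid library came near either B73 library. Its log2 fold change was -3.22 ± 0.40 in mop1F1 (SE, edgeR, adjusted p = 0.0137) and -3.35 ± 0.40 in WTF1 (SE, edgeR, adjusted p = 0.0133). Without B73 library 1 or 2 the adjusted p (edgeR) was 0.0979 and 0.0629 in mop1F1 and 0.0945 and 0.0628 in WTF1, and without WTF1 library 1 it was 0.0745 in WTF1. The fold change lay between -3.54 and -2.93 in mop1F1 and between -3.59 and -3.05 in WTF1 over all alternatives run.

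Zm00001d000316 rose in both hybrids. It had 47.6 and 42.3 CPM in mop1F1 and 68.9 and 74.4 CPM in WTF1, against 15.1 and 8.69 CPM in B73. Here the 3 groups did not overlap, with mop1F1 between B73 and WTF1. The log2 fold change was 1.99 ± 0.34 in mop1F1 (SE, edgeR, adjusted p = 0.0351) and 2.58 ± 0.35 in WTF1 (SE, edgeR, adjusted p = 0.0194). Between the hybrids the difference did not pass (log2 fold change -0.59 ± 0.33, edgeR, adjusted p = 1). Without B73 library 1 or 2 the adjusted p (edgeR) was 0.117 and 0.219 in mop1F1 and 0.0808 and 0.129 in WTF1. The mop1F1 call also ended without Mo17 library 1 or 2 (adjusted p = 0.0618 and 0.0616, edgeR) and without WTF1 library 1 or 2 (0.0538 and 0.0543), and the WTF1 call without WTF1 library 1 (0.0726).

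The other 3 genes that rose were nearly or wholly without reads in B73, although their gene models come from the B73 genome. These are the 3 that met the CPM minimum through the hybrids alone, so their selection favoured a difference. The counting intervals given for them pool both libraries of a group and leave out the spread between libraries. Zm00001d000062 had 111 and 138 counts in mop1F1 and 62 and 104 counts in WTF1, against 0 and 1 counts in B73. This was 4.72 and 5.30 CPM in mop1F1 and 5.29 and 3.97 CPM in WTF1, against at most 0.058 CPM in B73. The pooled ratio to B73 was 180 in mop1F1 (exact 95% counting interval 32.0 to 7130) and 157 in WTF1 (27.7 to 6223), with adjusted p = 0.0150 and 0.0177 (edgeR). Without B73 library 1 or 2 the adjusted p (edgeR) was 0.128 and 0.0797 in mop1F1 and 0.134 and 0.0871 in WTF1, and without WTF1 library 1 it was 0.0680 in WTF1.

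Zm00001d000209 had 31 and 46 counts in mop1F1 and 28 and 54 counts in WTF1, against 0 counts in both B73 libraries. It was at 1.32 and 1.77 CPM in mop1F1 and at 2.39 and 2.06 CPM in WTF1, at least 9.18-fold and 13.2-fold higher than 3 counts per B73 library (edgeR, adjusted p = 0.0364 and 0.0336). Zm00001d000277 had 37 and 78 counts in mop1F1 and 23 and 55 counts in WTF1, against 1 and 0 counts in B73. Its pooled ratio to B73 was 83.0 in mop1F1 (exact 95% counting interval 14.6 to 3308) and 73.6 in WTF1 (12.8 to 2943), with adjusted p = 0.0371 and 0.0429 (edgeR). Both genes had reads in all 4 hybrid libraries. Neither call was held by a wide margin: without any 1 of the B73, Mo17 or WTF1 libraries the adjusted p (edgeR) rose to between 0.0578 and 0.194 for Zm00001d000209 in WTF1 and between 0.0622 and 0.220 in mop1F1. For Zm00001d000277 it rose to between 0.0743 and 0.277 in WTF1 and between 0.0581 and 0.247 in mop1F1. In mop1F1 both calls also ended without mop1F1 library 2 (edgeR, adjusted p = 0.0584 and 0.0605). Zm00001d000277 was outside the rule for named genes and was chosen after its values were seen. So was Zm00001d000316 as a gene called against B73, though it met the rule by its p between the hybrids.

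**Figure D3:**
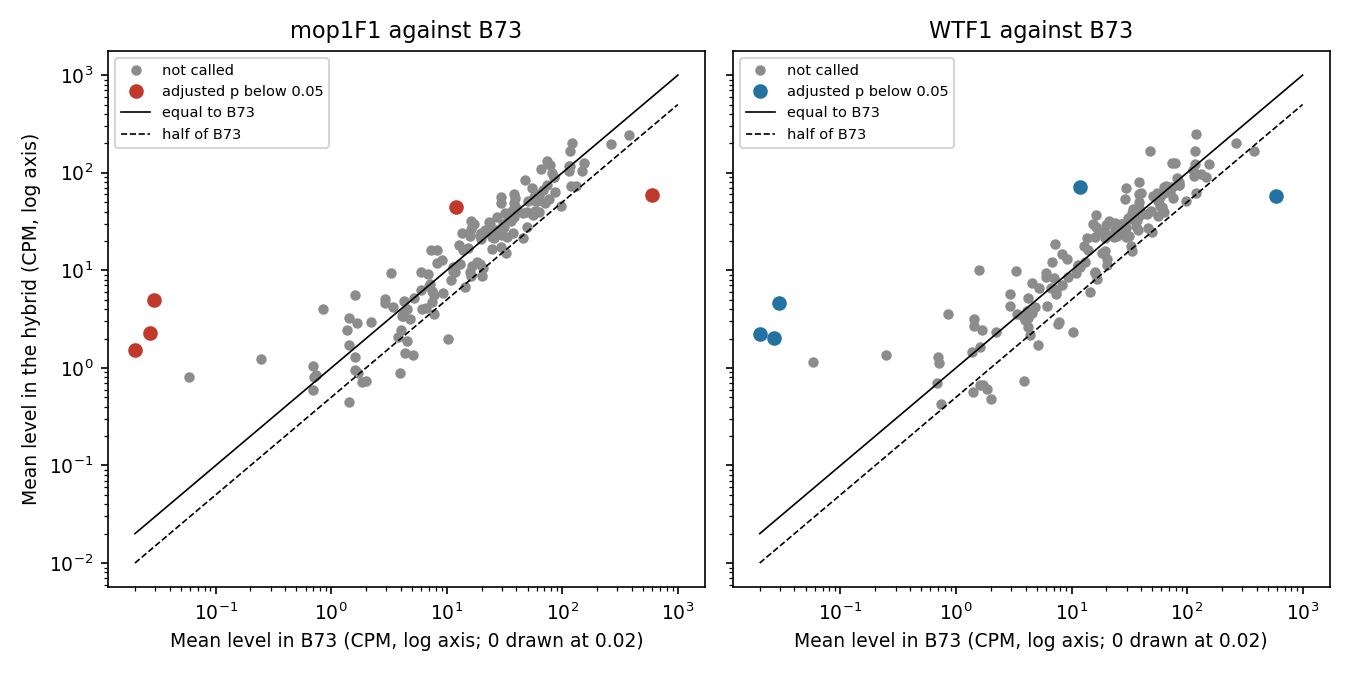
Mean level of each of the 157 genes in a hybrid against its mean level in B73, in CPM on log axes, with mop1F1 on the left and WTF1 on the right; the solid line marks equal levels and the dashed line a ratio of one to 2. Most genes lie along the solid line. The 5 coloured genes were called: Zm00001d000001 lies far below the line at 591 CPM in B73, and 4 lie above it.

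Several further genes stood on one side of B73 in every hybrid library without being called. All 4 hybrid libraries were above both B73 libraries for 21 of the 157 genes (13.4%, beside 16.6% of all IDs at that minimum) and below both for 30 (19.1%, beside 20.9%). The 5 called genes are included in these counts. Among those above, Zm00001d000230 had 7.53 and 11.02 CPM in mop1F1 and 11.3 and 8.51 CPM in WTF1, against 3.54 and 3.09 CPM in B73 (edgeR, adjusted p = 0.0989 and 0.0977). Zm00001d000458, with 8.76 and 2.42 CPM in mop1F1 and 14.3 and 5.92 CPM in WTF1, was at 1.66 and 1.52 CPM in B73 (edgeR, adjusted p = 0.231 and 0.134). Among those below, Zm00001d000402 had 2.68 and 1.27 CPM in mop1F1 and 3.75 and 0.916 CPM in WTF1, against 11.4 and 8.98 CPM in B73 (edgeR, adjusted p = 0.170 and 0.188). Zm00001d000452 had 34.0 and 58.1 CPM in mop1F1 and 62.0 and 39.8 CPM in WTF1, against 108 and 88.4 CPM in B73 (edgeR, adjusted p = 0.143 and 0.170). These 4 genes were chosen after their values were seen.

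DESeq2 called Zm00001d000230 higher in both hybrids (adjusted p = 0.0263 in mop1F1 and 0.0204 in WTF1) and Zm00001d000458 higher in WTF1 (adjusted p = 0.0149). It also called Zm00001d000402 lower in mop1F1 (adjusted p = 0.0431) and Zm00001d000077 higher in WTF1 (adjusted p = 0.0344). All 5 genes called by edgeR were among the 7 and 8 genes that DESeq2 called in mop1F1 and WTF1 against B73.

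No unplaced gene passed the test between the mutant and the wild-type hybrid. Of 157 genes, 0 were called in mop1F1 against WTF1 with edgeR and 0 with DESeq2. With either tool 0 genes had an unadjusted p below 0.05, and the smallest unadjusted edgeR p was 0.118. Of all IDs tested, 457 (1.86%) had an edgeR p below 0.05. Over all 24511 IDs, 0.00408% were higher and 0.00408% lower. The median log2 fold change of the genes was 0.007 (quartiles -0.17 and 0.21), beside 0.048 for all IDs. Within the libraries numbered 1 the median log2 ratio of mop1F1 to WTF1 was -0.17, and within those numbered 2 it was 0.01, beside -0.09 and 0.01 for all IDs at the same minimum. The hybrid libraries varied widely within a group, and the fit of all 8 libraries had no term for library number, so small differences could be missed. With the covariate marking library 1 of both hybrids, 3 genes had an unadjusted p below 0.05 and 0 were called (edgeR). A term for library number in all groups gave 0 and 0 (edgeR). The share over all IDs is not given for these 2 fits.

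The genes with the smallest unadjusted p are given as values only. Zm00001d000288 had 15.1 and 8.83 CPM in mop1F1 and 9.30 and 4.81 CPM in WTF1 (log2 fold change 0.87 ± 0.50, SE, edgeR, adjusted p = 1), and the groups overlapped. Zm00001d000227 had 123 and 113 CPM in mop1F1 and 92.8 and 94.1 CPM in WTF1, a log2 fold change of 0.42 ± 0.24 without overlap (SE, edgeR, adjusted p = 1). Zm00001d000222 had 78.8 and 66.7 CPM in mop1F1 and 106 and 89.7 CPM in WTF1, a log2 fold change of -0.34 ± 0.25, again without overlap (SE, edgeR, adjusted p = 1). The fourth, Zm00001d000316, is given above. Without mop1F1 library 1, 1 gene was called lower in mop1F1. This was Zm00001d000357, with 186 and 13.1 CPM in mop1F1 and 83.8 and 93.9 CPM in WTF1, at a log2 fold change of -2.81 in that fit (edgeR, adjusted p = 0.0295), and the lone mop1F1 library was then assumed to vary like the other groups.

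The 2 libraries of a hybrid differed widely at many genes, more often than those of B73. The libraries were over 2-fold apart for 43 of 157 genes in mop1F1 (27.4%, beside 28.5% of all IDs) and for 49 in WTF1 (31.2%, beside 26.3%), against 9 in B73 (5.73%, beside 4.55%). Both hybrids shifted the same way at some genes. Library 1 was over 2-fold above library 2 in both hybrids for 15 genes (9.55%, beside 8.05% of all IDs) and over 2-fold below it in both for 7 genes (4.46%, beside 1.43%). The numbers follow a name the libraries carry: per the deposited tables, both hybrid libraries numbered 1 are named with GP1 and both numbered 2 with GP5, and the labels do not say what this stands for.

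Zm00001d000203 is an example of a gene high in the libraries numbered 1. It had 165 and 5.18 CPM in mop1F1 and 287 and 50.8 CPM in WTF1, while B73 was at 44.9 and 49.9 CPM. Zm00001d000310 had 89.6 and 8.79 CPM in mop1F1 and 118 and 21.0 CPM in WTF1, while B73 was at 22.4 and 36.8 CPM. In both genes library 1 stood above B73 in each hybrid, and library 2 of mop1F1 stood below it. Zm00001d000179 had 29.6 and 4.84 CPM in mop1F1 and 49.3 and 4.69 CPM in WTF1, with 32.6 and 26.7 CPM in B73, so here library 2 of both hybrids was the one apart. In the other direction, Zm00001d000364 had 0.170 and 3.23 CPM in mop1F1 and 1.36 and 3.97 CPM in WTF1, with 1.45 and 1.40 CPM in B73. These genes were chosen after their values were seen. The libraries numbered 1 are also the ones rich in ambiguous records, and the part of this in the gap was not tested.

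**Figure D4:**
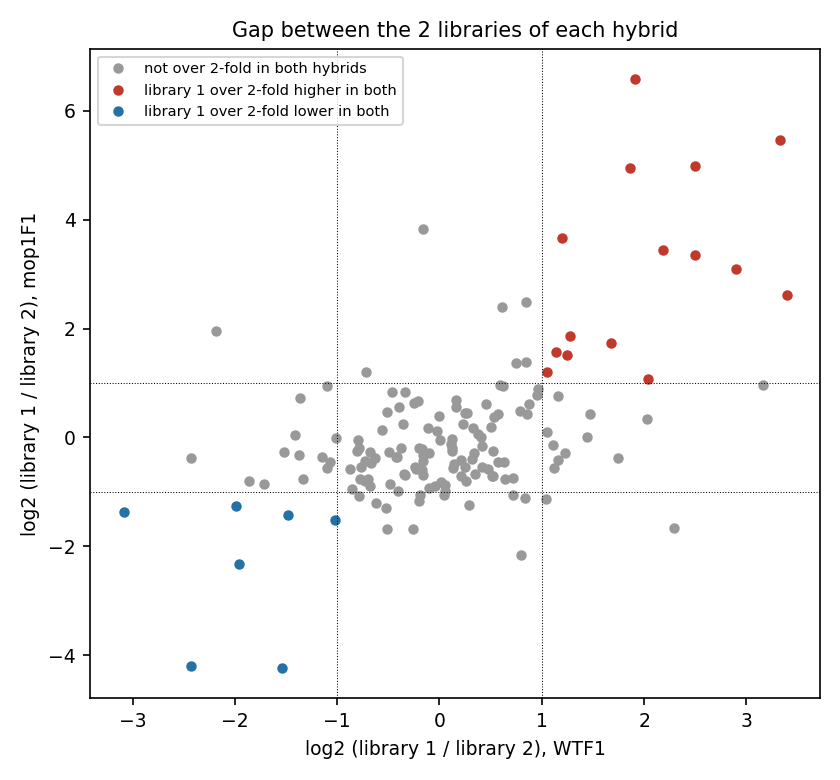
Log2 ratio of library 1 to library 2 in mop1F1 (vertical) against the same ratio in WTF1 (horizontal) for the 157 genes, with 0 counts set to 1 count; dotted lines mark 2-fold. Library 1 was over 2-fold above library 2 in both hybrids for 15 genes (red) and over 2-fold below it for 7 (blue).

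Other unplaced genes were steady. Among genes averaging at least 10 CPM, the highest library was within 1.17-fold of the lowest for Zm00001d000428, 1.23-fold for Zm00001d000443 and 1.25-fold for Zm00001d000430. Zm00001d000428 had 51.7 and 53.5 CPM in mop1F1, 53.9 and 53.6 CPM in WTF1, and 60.7 and 53.2 CPM in B73. Zm00001d000443 had 39.8 and 45.9 CPM in mop1F1, 40.5 and 45.5 CPM in WTF1, and 38.6 and 37.3 CPM in B73. In Zm00001d000428 B73 overlapped the hybrids, and both WTF1 libraries were marginally above both of mop1F1, whereas all hybrid libraries of Zm00001d000443 lay slightly above B73.

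The set took a slightly smaller part of the counted reads in the hybrids, and on that scale 1 gene carried most of the gap. Its summed level was 5203 and 5229 CPM in mop1F1 and 5746 and 5039 CPM in WTF1, against 6077 and 5844 CPM in B73. All hybrid libraries lay below both B73 libraries, and mop1F1 fell within the range of WTF1. The ratio of means to B73 was 0.875 in mop1F1 and 0.905 in WTF1 (exact permutation test, two-sided, p = 0.333 for each, the smallest that 2 libraries against 2 allow). With all records as the denominator it was 0.762 in mop1F1 and 0.785 in WTF1, and the part of any gene was not computed on that scale. Without Zm00001d000001, which was chosen after its values were seen, the sum was 5134 and 5179 CPM in mop1F1 and 5698 and 4970 CPM in WTF1, against 5383 and 5355 CPM in B73. The ratio was then 0.960 in mop1F1 and 0.993 in WTF1 (exact permutation test, two-sided, p = 0.333 and 1).

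Genes with consecutive numbers showed almost no common change. Over the 64 pairs of unplaced genes whose numbers differ by 1, the Spearman correlation of the log2 fold change against B73 was -0.04 in mop1F1 and 0.033 in WTF1, beside 0.08 and 0.076 over 13398 pairs of other tested IDs. Neighbours share libraries and normalisation, and whether they share a contig was not checked. In blocks of 100 numbers the median log2 fold change against B73 lay between -0.107 and 0.235 in mop1F1 and between -0.141 and 0.129 in WTF1. The highest median in both hybrids was that of the 34 genes numbered from 301 to 400. The 5 called genes were spread over 3 of the 5 blocks, with 2 from 1 to 100, 2 from 201 to 300 and 1 from 301 to 400.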

How the data were processed

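RNA from 8 libraries was counted per gene ID. The authors' deposited files hold whole-number counts; the 5 summary rows of each entered neither library sizes nor tests. Per the submitters' processing notes the tools were HISAT2, HTSeq, DESeq2, FastQC and Trimmomatic, of unstated version. No source used here gives the strand setting or aligner options, so overlapping, antisense and near-identical genes may share reads, which also holds for every ID named.

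CPM are counts per 1000000 of a library's gene total. Tests used edgeR 4.0.16 in R 4.3.3 (filterByExpr by group, TMM scaling, quasi-likelihood F test, Benjamini-Hochberg over all 24511 IDs, threshold 0.05) in 1 fit of all 8 libraries, checked on simulated data. SE is the log2 fold change divided by the square root of F. DESeq2 1.42.0 was an alternative, with other scaling, filters, fits, definitions of the set and left-out libraries. Rates of IDs over 2-fold apart or beyond B73 use the 22844 IDs at 1 CPM in 2 of 6 libraries. Named genes were the 10 with the most reads, up to 2 called in each direction per comparison with the largest fold change and no overlap, the smallest p between the hybrids where none was called, the steadiest, those at 0 in B73 and those nearest the CPM limit. Members and lists were chosen with earlier results of these data known.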

Additional observations from a re-analysis of the deposited data

Results flagged for a closer look

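Several kinds of uncounted records took a larger share of a hybrid library than of any B73 or Mo17 library. Ambiguous reads came to 10.25% in mop1F1 library 1 and 9.70% in WTF1 library 1, against at most 2.35% in a parent. Alignments of low quality came to 9.35% and 8.01% in mop1F1 and to 9.35% and 8.31% in WTF1. In B73, with which the hybrids are compared, they came to 1.76% and 2.24%, and in Mo17 to at most 6.06%. Reads aligned to several places came to 3.25% and 3.43% in mop1F1 and to 3.37% in WTF1 library 1, against at most 3.09%. Reads outside any feature came to 5.79% in mop1F1 library 2, against at most 5.603%. Whether any of these came from the unplaced contigs was not tested.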

How the results depend on the processing

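The number of unplaced genes called against B73, 5 in each hybrid, changed with the processing. The share of all IDs called is not given for these settings, so a changed number is not a result about the unplaced genes. In mop1F1 and WTF1 it was 7 and 8 with DESeq2, 10 and 12 (5 and 6 of them lower) with a covariate marking the hybrid libraries numbered 1, rich in ambiguous reads, 3 and 3 with the replicate block, 2 and 3 without the Mo17 group, 3 and 3 for genes at 5 CPM in 2 libraries, and 0 and 5 with the compared groups alone. Leaving out 1 library gave 0 to 10 in mop1F1 and 0 to 7 in WTF1, and 0 to 1 between the hybrids. With the replicate block Zm00001d000001, Zm00001d000062 and Zm00001d000316 stayed called in both hybrids, and Zm00001d000209 and Zm00001d000277 did not. The labels do not say that a number pairs samples. Deviations from the group mean correlated at 0.295 between same-numbered hybrid libraries, which also share a name part and a level of ambiguous records, and at -0.05 (mop1F1) and -0.058 (WTF1) with B73. With the covariate for ambiguous reads the hybrids were set against B73 near the level of their libraries numbered 2. The median log2 fold change of mop1F1 against B73 was then -0.091. That of WTF1 against B73 was 0.028 with a filter of 1 CPM in 2 libraries and -0.056 to 0.042 without 1 library. The ratio of summed levels to B73 in mop1F1 and WTF1 was 0.762 and 0.785 with all records as the denominator, 0.920 and 0.902 with TMM factors, and 0.960 and 0.993 without Zm00001d000001. None of the 5 called genes changed direction in any alternative run. The causes were not tested. Depth limits the genes near 1 CPM, where 1 to 3 counts in B73 leave ratios with wide intervals.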

Other observations

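Unplaced IDs with reads in the hybrids alone were more frequent than those with reads in B73 alone, at shares near those of other IDs. Of the 318 IDs, 46 (14.47%) had counts in a hybrid and 0 counts in both B73 libraries, beside 12.09% of the 39180 other IDs. At least 10 counts over the 4 hybrid libraries were reached by 15 of these (4.72% of the 318, beside 3.92% of the other IDs). In reverse, 6 (1.89%, beside 1.19%) had counts in B73 and none in the 4 hybrid libraries, and 0 of these reached 10 counts over the 2 B73 libraries. The hybrids have more libraries, and 3 of their 4 libraries were deeper than either B73 library.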
